A study of Mus musculus with 8 samples.

Results

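The genes described here encode the nuclear-encoded subunits of the mitochondrial respiratory chain and ATP synthase, together with the Ndufaf assembly factors of complex I. They were taken from the count table by symbol: every gene whose symbol begins with Ndufa, Ndufb, Ndufc, Ndufs, Ndufv, Uqcr, Cox4 to Cox8 or Atp5, and Sdha, Sdhb, Sdhc and Sdhd. Of 107 matching rows, 9 with a -ps symbol and 11 with a mean under 1 CPM (counts relative to the scaled size of the library) were left out, which gave 87 genes of the 55536 in the table. All 87 were among the 16333 genes tested. By symbol, 37 belong to complex I, 8 are complex I assembly factors, 4 belong to complex II, 8 to complex III, 13 to complex IV and 17 to complex V, the ATP synthase.

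Poly(A) RNA was sequenced from alphaTC6, a mouse line of glucagon-producing pancreatic alpha cells, labelled as WT in genotype. All cells were reverse transfected for 48 h with RNAiMax Lipofectamine. The controls were 4 libraries transfected with a scramble siRNA. The other 4 received an siRNA pool directed at Klf4, a DNA-binding regulator of the KLF family, since the study was about gene expression under its control in alpha cells. Batch 1 held scramble replicates 1 and 2 and Klf4 siRNA replicates 1, 2 and 4. Batch 2 held scramble replicates 3 and 4 and Klf4 siRNA replicate 3. The batches are labelled by number only, and what set them apart is not given in the sources used here. The model is 1 cell line, the extraction protocol speaks of isolated islets although every sample is labelled as the line, and the design text calls the replicates biological without saying how the cultures were separated.

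Complex I (NADH dehydrogenase), complex II (succinate dehydrogenase), complex III (ubiquinol-cytochrome c reductase) and complex IV (cytochrome c oxidase) pass electrons from NADH and succinate to oxygen, and complex V uses the proton gradient that complexes I, III and IV build to make ATP. Most subunits are encoded in the nucleus and imported, and the mitochondrial genome encodes the remaining core subunits of every complex but II. In pancreatic islet cells, ATP made in this way couples nutrient supply to membrane potential and hormone release.

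Totals were between 45954151 and 64185987 counts per library and did not separate the treatments (n = 4 per group, p = 0.486 in a two-sided exact permutation test). The 87 genes took 1.81% to 1.97% of each library's counts. Klf4 was at 39.3, 35.0, 46.6 and 46.5 CPM in scramble replicates 1 to 4 and at 12.4, 11.5, 19.7 and 19.0 CPM in Klf4 siRNA replicates 1 to 4, so the groups did not overlap. The level after siRNA was 39.8% of control, a log2 fold change of -1.33 (SE 0.17, Benjamini-Hochberg adjusted p = 0.0083 in the quasi-likelihood test of edgeR). Without scramble replicate 1 the edgeR adjusted p of Klf4 was 0.0524, and in batch 1 alone it was 0.104. Gcg, the glucagon gene, averaged 1175 ± 98.7 CPM (SD, n = 5) in batch 1 and 8450 ± 740.0 CPM (SD, n = 3) in batch 2, and the summed CPM of the alpha cell markers was 5596 to 5918 in batch 1 and 12510 to 13950 in batch 2. Of 7 beta cell markers, Ins1, Ins2 and Pdx1 were at 0 in every library and Slc2a2 and Iapp were under 0.3 CPM, whereas Mafa was at 2.72 to 3.75 CPM and Nkx6-1 at 103 to 149 CPM.

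Levels are given first, as sums of CPM, which count reads and are not corrected for gene length. The 87 genes summed to 18364.3, 18336.3, 19859.4 and 19928.1 CPM in scramble replicates 1 to 4 and to 17862.5, 18797.8, 19333.6 and 19319.8 CPM in Klf4 siRNA replicates 1 to 4. The 3 libraries of batch 2 were the highest, by a narrow margin over Klf4 siRNA replicate 4, and the treatments overlapped. Complex V took the largest part of the sum in every library, 7342.5 to 8240.3 CPM, and complex I the next, 4941.9 to 5385.4 CPM. The 8 assembly factors, which help build complex I and are not part of the finished enzyme, summed to 219.3 to 236.9 CPM.

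Between genes, levels were compared per kilobase of merged exon. Cox6a1, a small nuclear subunit of complex IV, was highest at 683 CPM per kb, followed by Atp5b, the catalytic beta subunit of ATP synthase, at 606. Ndufa1 led complex I at 335 CPM per kb, Uqcr11 led complex III at 357, Sdha, the flavoprotein that oxidises succinate, led complex II at 104, and Ndufaf8 led the assembly factors at 21.9. The lowest members were Cox8b at 3.2, Atp5s at 4.56, Ndufaf2 at 6.33 and Ndufb2 at 6.49 CPM per kb. Complex II was the most even, with Sdhc, one of its membrane anchors, lowest at 60.1. Merged exon length counts every annotated exon, so a gene with long minor transcripts reads low on this scale.

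**Figure D1:**
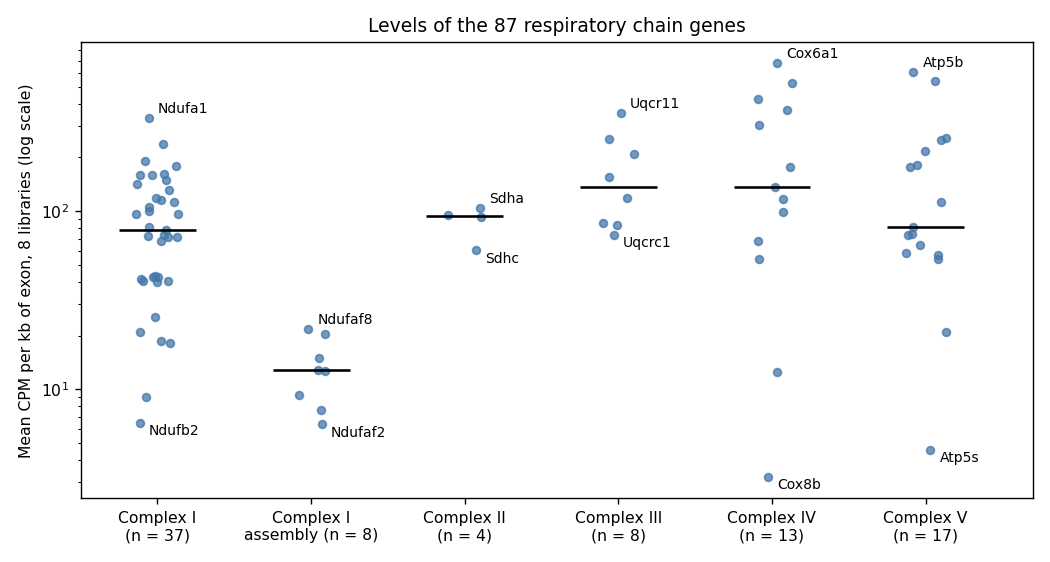
Mean level over 8 libraries of each of the 87 genes, in CPM per kb of merged exon on a log axis, by complex. Each point is a gene, the horizontal lines are group medians, and the highest and lowest gene of each group are named: Cox6a1 stands at 683 and Cox8b at 3.2.

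Several subunits have a tissue-restricted second isoform, and in these cells the general form had the higher level per kilobase in each family. Cox4i1 averaged 370.0 CPM per kb against 0.0316 for Cox4i2, the lung isoform, and Cox6b1 averaged 424 against 0.0165 for Cox6b2, the testis isoform. Cox6a1, at 683 CPM per kb, stood against 1.14 for Cox6a2, the heart and muscle isoform. Cox7a2 and Cox7a2l averaged 117 and 53.7 CPM per kb, whereas Cox7a1, another muscle isoform, averaged 12.5. Cox8a averaged 521 CPM per kb, the muscle isoform Cox8b 3.2 and Cox8c 0.00515. Ndufa4 averaged 179 CPM per kb and its paralog Ndufa4l2 0.526. Of the 3 genes for the c subunit of the ATP synthase rotor, which make the same mature protein, Atp5g3 was at 257, Atp5g1 at 74.7 and Atp5g2 at 53.8 CPM per kb. The muscle markers, a list of other genes, summed to 1.10 to 1.73 CPM per library.

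Promoter sequences of RefSeq (GRCm38.p6), from 250 bases before to 50 after each start, were found for 74 of the 87 genes (79 promoters) and searched on both strands for words of factors known to act at such genes. The word GCGCANGCG of NRF1, nuclear respiratory factor 1, was in 29.1% of the members' promoters and in 6.25% of all 32851 promoters of that length. CCGGAAG, the word of ETS factors such as GABP, was in 22.8% against 8.86%, and AAGATGGC, the word of YY1, in 13.9% against 2.75%. Of 2 KLF words, CCACACCC was in 3.8% against 3.56%, and the looser CCNCNCCC in 58.2% against 49.5%. The members' promoters had a median GC content of 58.7% against 52.7% in all promoters, and the part of base composition in these shares was not tested. A match is a description of the letters and does not show binding.

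Stretches of 4 promoters are shown, left of the start and without annotated UTR bases, for members the comparisons below turn on. Cox6a1 and Cox5a are 2 complex IV subunits past the treatment threshold in opposite directions. Atp5h is an ATP synthase stalk subunit higher in batch 2, and Cox8b is a muscle isoform of low level. Each stretch is written 5′ to 3′ on the gene's own strand, with matches to these 5 words in capitals. Cox6a1 is chr5:115348982-115349208 on the minus strand, Cox5a is chr9:57520982-57521231 on the plus strand, Atp5h is chr11:115419963-115420127 on the minus strand and Cox8b is chr7:140900447-140900696 on the minus strand, all in GRCm38.p6. The capitals are NRF1 and CCNCNCCC matches in Cox6a1 and Atp5h and a CCNCNCCC match in Cox5a, and the Cox8b stretch has none. Cox6a1 and Atp5h each also have an ETS match in the part of the promoter that is not shown. Lack of a match is not particular to genes of low level, as the promoters of Ndufa1, Ndufa4 and Cox7b also had none.
Cox6a1: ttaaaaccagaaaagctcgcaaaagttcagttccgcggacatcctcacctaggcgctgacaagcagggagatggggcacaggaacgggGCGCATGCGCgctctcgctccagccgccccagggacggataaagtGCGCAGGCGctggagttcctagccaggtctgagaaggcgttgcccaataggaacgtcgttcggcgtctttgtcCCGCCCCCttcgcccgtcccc
Cox5a: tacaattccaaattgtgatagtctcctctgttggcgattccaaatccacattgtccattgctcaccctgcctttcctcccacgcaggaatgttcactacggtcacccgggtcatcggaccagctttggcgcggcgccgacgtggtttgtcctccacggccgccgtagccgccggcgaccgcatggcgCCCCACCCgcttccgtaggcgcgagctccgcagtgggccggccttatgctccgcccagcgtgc
Atp5h: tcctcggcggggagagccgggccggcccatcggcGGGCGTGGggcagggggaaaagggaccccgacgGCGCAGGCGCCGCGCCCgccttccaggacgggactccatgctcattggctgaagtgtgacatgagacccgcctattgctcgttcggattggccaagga
Cox8b: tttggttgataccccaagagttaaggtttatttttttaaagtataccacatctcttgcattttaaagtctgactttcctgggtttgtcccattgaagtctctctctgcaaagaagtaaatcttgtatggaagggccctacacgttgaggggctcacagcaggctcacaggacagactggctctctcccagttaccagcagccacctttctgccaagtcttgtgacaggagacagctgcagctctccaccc

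The comparison of treatments asked whether the RNA of these genes differed when Klf4 was lowered, with batch as a term. After Klf4 siRNA, 8 of the 87 genes (9.2%) passed an edgeR adjusted p of 0.05, 4 higher and 4 lower, beside 11.7% of all tested genes (4.88% higher and 6.81% lower). The members' share was thus near the background. Their log2 fold changes ran from -0.22 to 0.16, with a median of 0.0045 against 0.0 over all tested genes, and the median absolute change was 0.032 against 0.0774. At an unadjusted p under 0.05 there were 18 of the 87 and 3908 of the 16333. In complex II Sdhd fell and Sdhc rose, and in complex IV Cox6a1 fell and Cox5a rose. Of 8 tested alpha cell markers, 4 passed as lower after Klf4 siRNA in edgeR, and their part in the members' differences was not tested. In bulk RNA, fewer cells of a type and less RNA per cell cannot be told apart.

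**Figure D2:**
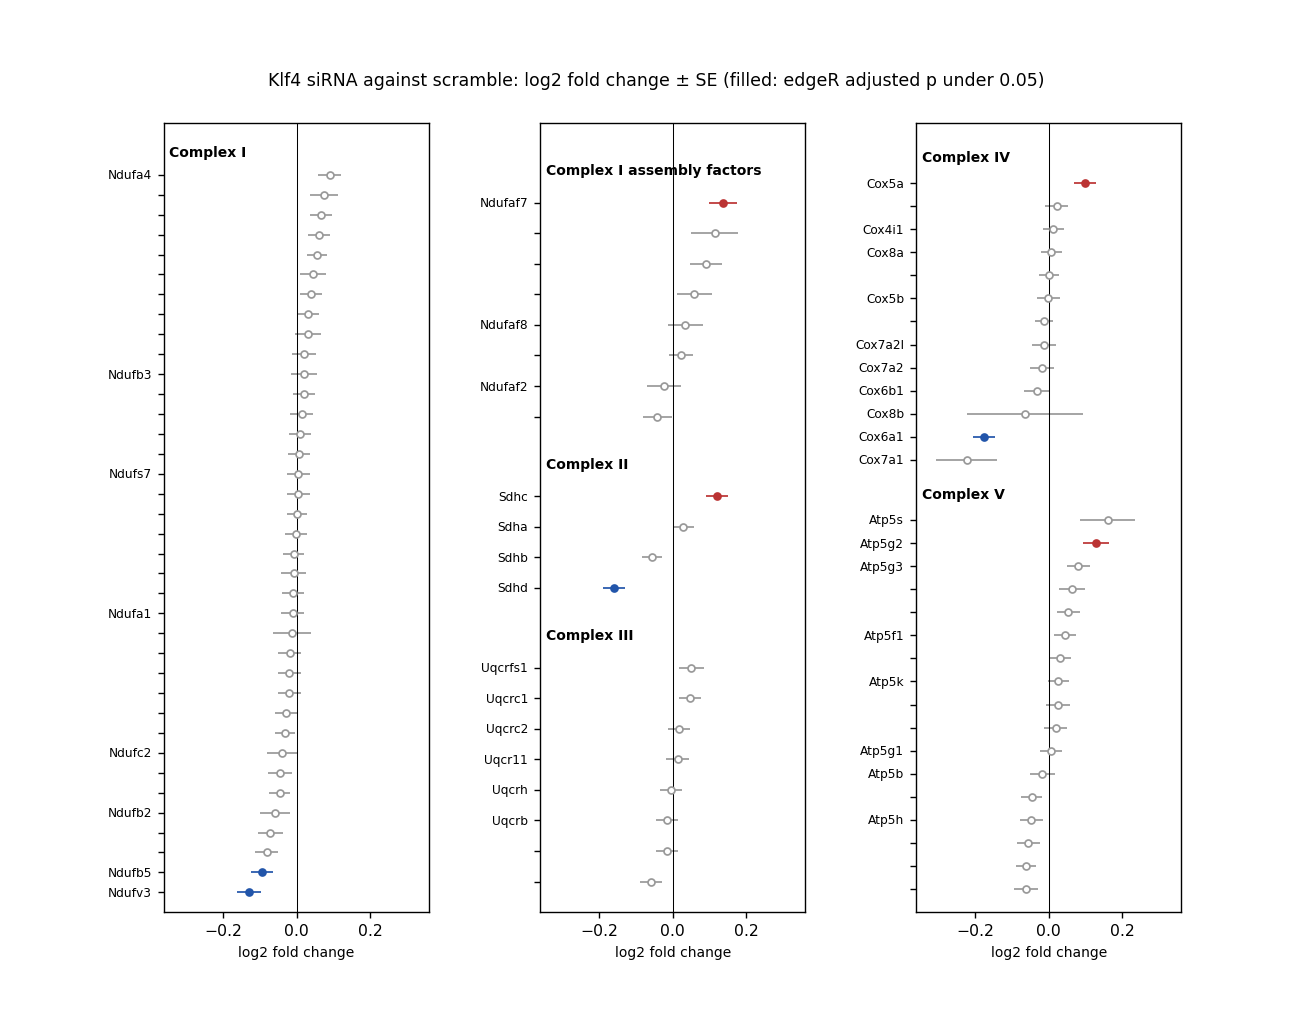
Log2 fold change after Klf4 siRNA of each of the 87 genes, by complex, with bars for ± 1 SE (4 libraries per treatment, batch as a term). Labels are given for genes past the threshold and the other genes chosen by the naming rule. Filled points are the 8 genes with an edgeR adjusted p under 0.05 (red higher, blue lower), and the rest lie around 0 between -0.22 and 0.16.

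In complex I, 2 of 37 subunits passed, both lower (gene positions here and below are those of GENCODE M21 on GRCm38). Ndufv3 (ENSMUSG00000024038, chr17:31520115-31531331), an accessory subunit of the NADH-oxidising module, was at 129, 130.0, 136 and 148 CPM in scramble replicates 1 to 4 and at 117, 123, 126 and 120.0 CPM in Klf4 siRNA replicates 1 to 4. Every Klf4 siRNA library was below every control. The log2 fold change was -0.13 (SE 0.03, edgeR adjusted p = 0.0111), and with scramble replicate 2 left out the adjusted p was 0.0573, with Klf4 siRNA replicate 3 left out 0.132, and in batch 1 alone 0.066. Ndufb5 (ENSMUSG00000027673, chr3:32736990-32751566), a membrane-arm accessory subunit, was at 101, 105, 116 and 115 CPM in scramble replicates and at 93.9, 98.8, 105 and 99.8 CPM in Klf4 siRNA replicates, and the groups met at 101 to 105. Its log2 fold change was -0.095 (SE 0.03, edgeR adjusted p = 0.0442), and it held in 2 of 8 leave-one-out fits, the weakest being that without Klf4 siRNA replicate 3 (adjusted p = 0.286). Ndufb5 shares exon bases with Mrpl47 on the opposite strand, and since the use of strand in counting is not given, reads of the 2 could be mixed. The log2 fold change of Mrpl47 was 0.11 (adjusted p = 0.116 in edgeR).

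The other 35 subunits of complex I did not pass, and the group's median log2 fold change was -0.0019. Ndufa4, which is counted here by its symbol and is also known as a subunit of complex IV, was nearest to the threshold among them. It was at 245, 242, 241 and 223 CPM in scramble replicates 1 to 4 and at 259, 275, 238 and 260.0 CPM in Klf4 siRNA replicates 1 to 4, which is 0.09 on the log2 scale (edgeR adjusted p = 0.066). Its groups overlapped, because Klf4 siRNA replicate 3, of batch 2, was below 3 of the controls. Ndufb1-ps, left out for its symbol, is annotated as a noncoding RNA but averaged 46.7 CPM, and its log2 fold change was 0.0052 (edgeR adjusted p = 0.964).

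Among the 8 assembly factors 1 passed. Ndufaf7 (ENSMUSG00000024082, chr17:78937136-78948052), a methyltransferase needed for complex I assembly, was at 31.1, 32.5, 29.9 and 29.3 CPM in scramble replicates and at 34.7, 36.8, 31.9 and 34.6 CPM in Klf4 siRNA replicates. The groups overlapped through Klf4 siRNA replicate 3, which was above both controls of its own batch. The log2 fold change was 0.14 (SE 0.04, edgeR adjusted p = 0.0234), and the adjusted p was 0.0883 in batch 1 alone. It held in 4 of 8 leave-one-out fits, the weakest being that without scramble replicate 1 (adjusted p = 0.169). Of the 8 factors, 6 had a positive log2 fold change, with a group median of 0.05.

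Complex II has 4 subunits, and its 2 membrane anchors moved in opposite directions. Sdhd (ENSMUSG00000000171, chr9:50596357-50603812), which with Sdhc holds the enzyme in the membrane and binds ubiquinone, was at 118, 121, 132 and 129 CPM in scramble replicates and at 102, 109, 119 and 108 CPM in Klf4 siRNA replicates. In each batch the Klf4 siRNA libraries were below the controls, and the pooled groups overlapped through Klf4 siRNA replicate 3. The log2 fold change of Sdhd was -0.16 (SE 0.03, edgeR adjusted p = 0.000956), -0.17 within batch 1 and -0.13 within batch 2, and it held in all 8 leave-one-out fits. Sdhc (ENSMUSG00000058076, chr1:171127165-171150603) was at 180.0, 184, 196 and 193 CPM in scramble replicates and at 190.0, 208, 207 and 204 CPM in Klf4 siRNA replicates. Its log2 fold change was 0.12 (SE 0.03, edgeR adjusted p = 0.00881), 0.14 within batch 1 and 0.09 within batch 2, with an adjusted p of 0.0917 without scramble replicate 1. The catalytic subunits did not pass: the log2 fold change was 0.03 for Sdha (adjusted p = 0.604 in edgeR) and -0.06 for Sdhb, the iron-sulfur subunit (adjusted p = 0.201).

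In complex III, 0 of 8 subunits passed in edgeR, DESeq2 or limma-voom, and 0 had an unadjusted p under 0.05 in any of the 3. Log2 fold changes ran from -0.06 for Uqcr10 (edgeR adjusted p = 0.243) to 0.05 for Uqcrfs1, the Rieske iron-sulfur protein (edgeR adjusted p = 0.393).

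In complex IV, 2 of 13 subunits passed. Cox6a1 (ENSMUSG00000041697, chr5:115345642-115348981) was at 489, 480.0, 532 and 561 CPM in scramble replicates and at 416, 433, 474 and 452 CPM in Klf4 siRNA replicates. Every Klf4 siRNA library was below every control, and Klf4 siRNA replicate 3, the batch 2 library, was the highest of its group. The log2 fold change was -0.18 (SE 0.03, edgeR adjusted p = 0.000592), the smallest adjusted p of the 87, and it held in all 8 leave-one-out fits. The level was 88.5% of control. Of the 50-base words of its longest transcript, 12.3% also occur in other genes' transcripts, of which AC148174.2 was at 0.909 CPM and differed by 0.03 on the log2 scale (edgeR adjusted p = 0.952).

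Cox5a (ENSMUSG00000000088, chr9:57521274-57532426), a subunit on the matrix side of the enzyme, was at 190.0, 194, 216 and 206 CPM in scramble replicates and at 204, 211, 215 and 218 CPM in Klf4 siRNA replicates. The groups overlapped, and the difference lay mostly in batch 1: it was 0.14 on the log2 scale within batch 1 and 0.02 within batch 2, while the fit of both gave 0.10 (SE 0.03, edgeR adjusted p = 0.0385). It held in 2 of 8 leave-one-out fits, the weakest being that without scramble replicate 1 (adjusted p = 0.262). Cox7a1 had the lowest log2 fold change of the 87, -0.22 (SE 0.08, edgeR adjusted p = 0.0888). It was at 6.62, 6.58, 7.7 and 8.49 CPM in scramble replicates and at 5.57, 6.74, 6.1 and 5.89 CPM in Klf4 siRNA replicates, so the groups overlapped. The remaining isoforms lay close to 0, with log2 fold changes of 0.01 for Cox4i1, -0.03 for Cox6b1, -0.02 for Cox7a2, -0.01 for Cox7a2l, 0.01 for Cox8a and -0.06 for Cox8b.

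In complex V, 1 of 17 genes passed. Atp5g2 (ENSMUSG00000062683, chr15:102662864-102672352) was at 85.5, 84.6, 84.5 and 89.4 CPM in scramble replicates and at 90.0, 97.0, 90.5 and 99.6 CPM in Klf4 siRNA replicates. The groups did not overlap, by a margin of less than 1 CPM. The log2 fold change was 0.13 (SE 0.04, edgeR adjusted p = 0.0221), and it held in 4 of 8 leave-one-out fits, the weakest being that without scramble replicate 2 (adjusted p = 0.133). Its sister genes had log2 fold changes of 0.0054 (Atp5g1, edgeR adjusted p = 0.949) and 0.08 (Atp5g3, edgeR adjusted p = 0.102). Copies may take or give reads, as 14.8% of the 50-base words of Atp5g2 occur in other genes. Atp5s, a coupling factor, had the highest log2 fold change of the 87, 0.16, and did not pass (edgeR adjusted p = 0.195).

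**Figure D3:**
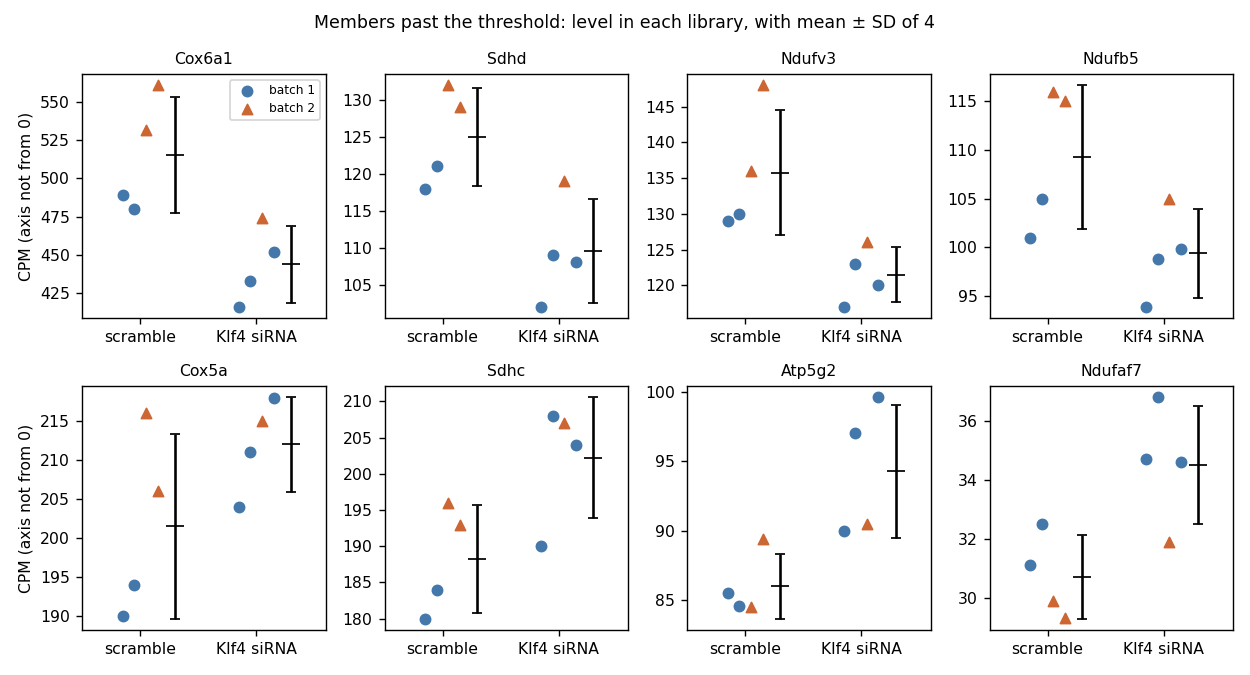
Level in CPM of the 8 genes past the treatment threshold, in each of 8 libraries, with circles for batch 1, triangles for batch 2 and the mean ± SD of 4 libraries beside each group (axes do not start at 0). Cox6a1, Ndufv3 and Atp5g2 show no overlap between treatments, while Sdhd separates them only within each batch.

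Without the batch term none of the 8 genes passed, and the share of all tested genes was 2.5%. The log2 fold changes in that fit were -0.22 for Cox6a1 and -0.19 for Sdhd, and that of Cox5a was 0.07. Leaving out scramble replicate 1 left 3 of the 8 genes, 0 higher and 3 lower (5.63% of all genes). Without scramble replicate 2, 3 were left, 1 higher and 2 lower (6.06%). Without Klf4 siRNA replicate 3, 5 were left, 3 higher and 2 lower (7.44%). The balance of higher and lower members thus varied, and without Klf4 siRNA replicate 2 it was 1 to 5 (10.6%). In batch 1 alone, 5 passed (7.44%).

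Whether the treatment difference was the same in both batches was tested as an interaction. None of the 87 genes passed in edgeR, beside 0.0% of all tested genes, and 1 had an unadjusted p under 0.05 (0 in DESeq2, 1 in limma-voom). The signs were one-sided all the same: the fitted interaction was negative for 76 of 87, with a median of -0.05 against -0.0037 over all genes. Within batch 1 the median difference of the members was 0.02 on the log2 scale and 57 were positive. Within batch 2 it was -0.03 and 24 were positive, and over all genes the medians were 0.0021 and -0.0072. Batch 2 has a single Klf4 siRNA library, so its differences rest on that library. All 8 genes past the treatment threshold had the same sign in both batches. They were selected in a fit of both batches, which favours such agreement, so it is no separate test.

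**Figure D4:**
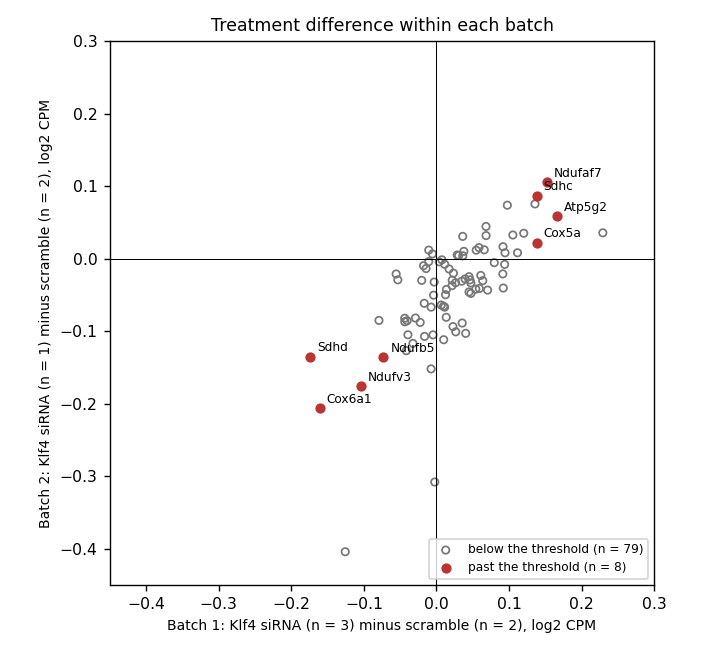
Difference in log2 CPM between Klf4 siRNA and scramble within batch 1 (horizontal, 3 against 2 libraries) and within batch 2 (vertical, 1 against 2) for each of the 87 genes. The 8 named genes, selected in a fit of both batches, lie in the lower left or upper right. More of the others are positive in batch 1 (57 of 87 in all) than in batch 2 (24 of 87).

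Batch was the larger difference for these genes. With treatment as a term, 45 of 87 (51.7%) passed an edgeR adjusted p of 0.05 between batches, 41 of them higher in batch 2 and 4 lower, beside 32.7% of all tested genes (16.8% higher and 15.9% lower). The differences were small: the median log2 difference was 0.08 against 0.0007 over all genes, and 75 of 87 were positive. The members that passed as higher came from complex I (14), II (3), III (5), IV (10) and V (9), and none was an assembly factor. Of the 8 assembly factors, 6 had a positive log2 difference all the same, with a group median of 0.05. With library size alone in place of TMM scaling, 25 passed (18 higher and 7 lower, beside 33.2% of all genes), the median of the members was 0.04 and that of all genes was -0.04. Leaving out scramble replicate 1 left 28 genes past the threshold and leaving out scramble replicate 2 left 29, each beside 26.5% of all genes. Cell type markers moved with batch as well: 4 of 8 tested alpha cell markers passed in edgeR (3 higher, 1 lower), 1 of 2 beta cell markers (summed CPM 107.3 to 122.9 in batch 1 and 138.5 to 152.1 in batch 2) and the 1 tested ductal marker (1.08 to 1.57 and 3.72 to 4.60). Of the leukocyte markers, 1 was higher and 1 lower, and their part in the members' differences, like that of Gcg, was not tested.

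**Figure D5:**
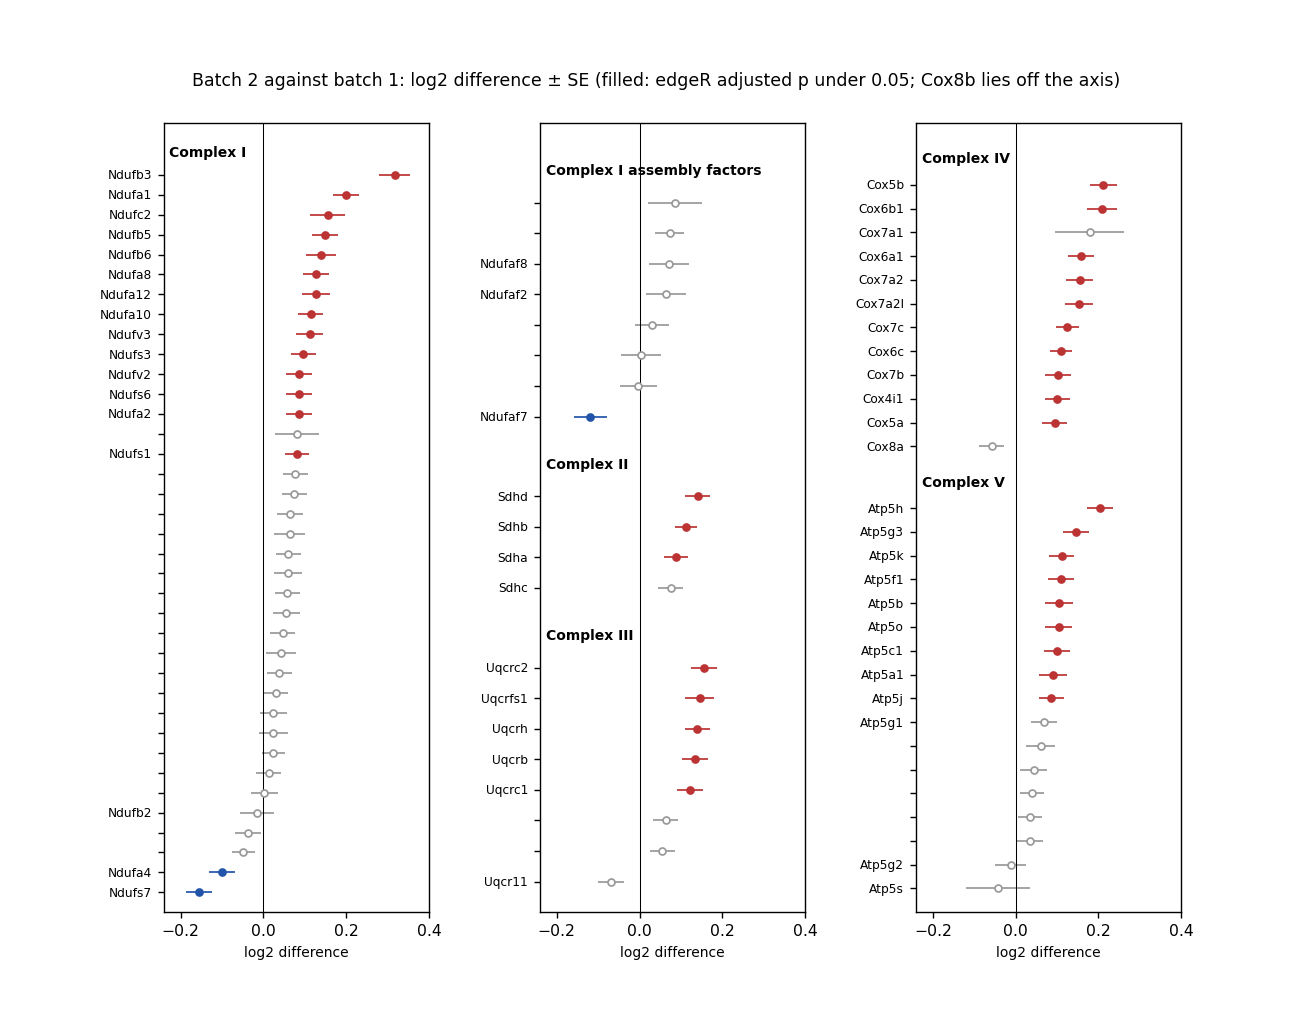
Log2 difference between batch 2 (3 libraries) and batch 1 (5 libraries) for each gene but Cox8b, by complex, with bars for ± 1 SE and treatment as a term. Labels are given for genes past the threshold and others chosen by the naming rule. Filled points passed an edgeR adjusted p of 0.05 (red higher in batch 2, blue lower), and Cox8b, at -1.33, lies off the axis.

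In complex I, 16 of 37 passed, 14 higher in batch 2 and 2 lower. Ndufb3, an accessory subunit of the membrane arm, showed the largest rise of the 87. It was at 109, 109, 105, 113 and 120.0 CPM in batch 1 (scramble 1 and 2, Klf4 siRNA 1, 2 and 4) and at 135, 143 and 136 CPM in batch 2 (scramble 3 and 4, Klf4 siRNA 3), with no overlap. The log2 difference was 0.32 (SE 0.04, edgeR adjusted p = 1.58e-06). Within complex I, Ndufa1 followed at 0.20 and Ndufc2 at 0.15, both of the membrane arm. With scramble replicate 1 or 3 left out, Ndufc2 had edgeR adjusted p of 0.0562 and 0.0604. Ndufs7, which carries the last iron-sulfur cluster before ubiquinone, was lower in batch 2, 69.2 ± 1.4 CPM (SD, n = 3) against 77.4 ± 1.89 (SD, n = 5), a log2 difference of -0.16 (edgeR adjusted p = 0.0006). Ndufa4 was also lower, with a log2 difference of -0.10 (edgeR adjusted p = 0.0213), and its adjusted p was 0.294 without Klf4 siRNA replicate 3. Of the assembly factors, Ndufaf7 passed, at -0.12 (edgeR adjusted p = 0.026), and its adjusted p was 0.197 without Klf4 siRNA replicate 3.

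Complexes II and III were higher in batch 2 where they passed. Sdhd (0.14), Sdhb (0.11) and Sdha (0.09) had edgeR adjusted p of 0.00107, 0.0034 and 0.0227, and Sdhc was at 0.07 (edgeR adjusted p = 0.0627). The Sdha difference held in 4 of 8 leave-one-out fits (adjusted p of at most 0.111, without scramble replicate 3). With library size alone, Sdha had an adjusted p of 0.207 and Sdhb 0.0571, and with scramble libraries only Sdha had 0.0744. In complex III, Uqcrc2, a core protein, rose by 0.15, Uqcrfs1 by 0.15, Uqcrh, the hinge protein, by 0.14 and Uqcrb by 0.13, with edgeR adjusted p from 0.000621 to 0.00259. Uqcrc2 was at 207, 207, 202, 213 and 224 CPM in batch 1 and at 239, 230.0 and 230.0 CPM in batch 2, with no overlap. For Uqcrb, 43.2% of the 50-base words occur in other genes' transcripts, so its counts depend on how such reads were treated.

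In complex IV, 11 of 13 passed, 10 higher and 1 lower, the largest share of the groups with more than 4 genes. Cox5b was at 465, 446, 449, 450.0 and 462 CPM in batch 1 and at 505, 545 and 527 CPM in batch 2, with no overlap, a log2 difference of 0.21 (SE 0.03, edgeR adjusted p = 2.4e-05). Cox6b1, which lies where the enzyme's monomers meet, was higher by 0.21 (edgeR adjusted p = 0.000156). Cox6a1 was higher by 0.16 (edgeR adjusted p = 0.000605), so that the level of this gene differed by a like amount with batch and, in the other direction, with siRNA.

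Cox8b met the mean of 1 CPM only through batch 1, where it averaged 1.48 CPM against 0.597 in batch 2, so its batch difference is given as a description and it is the 1 lower gene in the complex IV count. It was at 1.56, 1.4, 1.27, 1.77 and 1.42 CPM in batch 1 and at 0.628, 0.652 and 0.51 CPM in batch 2, and the log2 difference was -1.33. Its smallest count was 27 in a library, the lowest of the 87 genes. Cox8a, the general isoform, was at -0.06 (edgeR adjusted p = 0.152), and Cox7a1, the other muscle isoform among the members, at 0.18 (SE 0.08, edgeR adjusted p = 0.112). The muscle markers summed to 1.10 to 1.44 CPM in batch 1 and 1.24 to 1.73 in batch 2, and 0 of the 3 tested passed between batches in edgeR.

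In complex V, 9 of 17 passed and all 9 were higher in batch 2. Atp5h, of the peripheral stalk, was at 249, 254, 237, 252 and 257 CPM in batch 1 and at 291, 303 and 276 CPM in batch 2, a log2 difference of 0.20 (SE 0.03, edgeR adjusted p = 4.32e-05). Of its 50-base words, 47.9% occur in other genes' transcripts. Atp5g3 was higher by 0.14 (edgeR adjusted p = 0.00124), whereas Atp5g1 (0.07, edgeR adjusted p = 0.107) and Atp5g2 (-0.01, edgeR adjusted p = 0.844) did not pass. Over the 62 members with under 5% of such words shared, 30 passed between batches (26 higher, 4 lower) and 6 between treatments.

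Other genes of the pathway were read from lists. A list of 15 genes outside the symbol rule held core subunits, electron carriers, Coq genes of ubiquinone synthesis, Atpif1, Higd1a and Higd2a. Of these 15, 2 passed between treatments, beside 11.7% of all genes. The gene listed as 1810037I17Rik fell by 0.25 on the log2 scale (adjusted p = 0.000769 in edgeR), and Coq3, a methyltransferase of ubiquinone synthesis, rose by 0.23 (edgeR adjusted p = 0.0168). Of 43 assembly factors outside the rule, Coa5 (0.14, edgeR adjusted p = 0.00309) and Cox10, the heme O synthase (0.16, edgeR adjusted p = 0.0201), passed as higher. None passed as lower, and 21 of the 43 had a positive log2 fold change. Of 18 citric acid cycle and pyruvate dehydrogenase genes, Idh3g, a regulatory subunit of isocitrate dehydrogenase, rose by 0.09 (edgeR adjusted p = 0.0453). Between batches, 2 of the 15 genes of the first list passed, Cycs and Coq7, both higher in batch 2. Of the 43 assembly factors 12 passed (6 higher, 6 lower), and of the 18 citric acid cycle genes 8 (7 higher, 1 lower). The median log2 difference over the 18 was 0.08, and 32.7% of all genes passed.

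Of 23 regulators of mitochondrial biogenesis, Tfb1m, the ribosomal RNA methyltransferase of mitochondria, rose after Klf4 siRNA by 0.25 on the log2 scale (edgeR adjusted p = 0.0153), the only one of the 23 to pass, beside 11.7% of all genes. It was at 8.14, 7.96, 7.75 and 7.19 CPM in scramble replicates and at 8.8, 9.89, 8.78 and 10.1 CPM in Klf4 siRNA replicates, with no overlap. Between batches 9 of the 23 passed, 2 higher in batch 2 and 7 lower, beside the 32.7% of all genes (16.8% higher and 15.9% lower). Ppargc1b, a coactivator of these genes, averaged 1.12 ± 0.234 CPM (SD, n = 5) in batch 1 and 2.61 ± 0.0577 (SD, n = 3) in batch 2, and Esrrg, an estrogen-related receptor, 28.9 ± 1.89 and 40.3 ± 1.42. The 7 that were lower include Nrf1, Yy1 and Polrmt, the mitochondrial RNA polymerase.

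Of the 13 mitochondrially encoded subunits, 0 passed between treatments in edgeR, DESeq2 or limma-voom, and 0 had an unadjusted p under 0.05 in any of the 3. They summed to 37290 to 55210 CPM per library, and 12 of 13 had a positive log2 fold change, with a median of 0.10. Between batches mt-Nd3 (0.28, edgeR adjusted p = 0.00216) and mt-Atp8 (0.22, edgeR adjusted p = 0.0169) were higher in batch 2. Poly(A) selection captures mitochondrial transcripts unevenly, so levels of the 2 genomes cannot be set side by side as amounts of transcript.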

How the data were processed

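The authors deposited 1 table of raw, whole-number counts per gene for the 8 libraries. The library kit was Tecan Universal Plus mRNA-seq, per the labels' protocols. FastQC, STAR, featureCounts and DESeq2 with mm10 are named in the submitters' processing notes, without roles. Their versions, the strand setting and the treatment of multimapping reads are not given in the sources used here. The series' design text names edgeR with batch correction, which the fit here follows.

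All 55536 identifiers and symbols matched GENCODE M21, used for positions, exon lengths and shared 50-base words. Genes were kept with filterByExpr (16333) and scaled with TMM, and edgeR 4.0.16 in R 4.3.3 was fitted on the whole table by robust quasi-likelihood with batch and treatment (5 residual degrees of freedom). Two-sided p-values were Benjamini-Hochberg adjusted over the whole table, with a threshold of 0.05. Within-batch values are differences of mean log2 CPM (prior count 2). The fit was tested on simulated data. DESeq2 1.42.0 and limma 3.58.1 (voom) were alternatives. P-values measure the spread between these libraries. Counts include any PCR duplicates.

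Genes were named by rule: Klf4; in each complex up to 6 past the treatment threshold and up to 4 past the batch threshold; isoform families; the highest and lowest per kilobase; and up to 4 per list past the treatment threshold. Other names (Ndufb1-ps, neighbours and list genes between batches) were chosen after their values were seen. The members, lists and tests were chosen with earlier results of these data known. Marker lists of beta, delta and PP, acinar, ductal, fibroblast, endothelial and leukocyte cells had 2, 0, 1, 1, 0, 1 and 2 tested genes. Of these, 1 beta cell gene passed between treatments in edgeR. Of 8 tested alpha cell markers, 4 passed as lower after Klf4 siRNA (edgeR), beside 6.81% of all tested genes lower and 11.7% in either direction.

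Replicate numbers do not pair the treatments: after batch means were removed, same-numbered libraries correlated at -0.04 to 0.12 for replicates 1, 2 and 4 and at -0.30 for replicate 3, and the replicates numbered 4 lie in different batches.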

Additional observations from a re-analysis of the deposited data

Results flagged for a closer look

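In groups of 4 libraries, the gap between an extreme library and its nearest neighbour was compared with the whole range of the group, for the 39 named genes. In 3 of 78 groups this ratio was above Dixon's critical value for 4 values, where chance gives about 3.9 (1 in 20) if the 4 libraries are draws from a single population. Each group here mixes both batches, so that number does not allow for batch. For Ndufa4 the scramble libraries were at 245, 242, 241 and 223 CPM, and replicate 4 was the lowest with a ratio of 0.852. For Ndufb2 they were at 36.8, 36.5, 39.1 and 36.5 CPM, and replicate 3 was the highest with a ratio of 0.88. For Cox5b the Klf4 siRNA libraries were at 449, 450.0, 527 and 462 CPM, and replicate 3, the only one of batch 2, was the highest with a ratio of 0.833.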

How the results depend on the processing

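The count of 8 genes past the treatment threshold was 0 without the batch term (2.5% of all tested genes passed), 5 in batch 1 alone (7.44%), 5 with library size alone (8.91%), 5 with the replicate block in place of batch (7.47%), and 3 to 9 when a library was left out (5.63% to 12.1%). With the replicate block, Ndufv3 had an edgeR adjusted p of 0.0647, Sdhc 0.0558 and Cox5a 0.153. The count of 45 between batches was 25 with library size alone (33.2% of all genes) and 28 to 49 when a library was left out (23.2% to 37.2%). The interaction count was 0 in all fits run, and could not be fitted without Klf4 siRNA replicate 3. DESeq2 size factors, DESeq2, limma-voom and the filters kept both counts within 1.5 times. The members' median log2 value ran from -0.02 to 0.02 between treatments and from 0.04 to 0.10 between batches. No named gene reversed direction past the threshold. Why these counts move was not tested. For Cox8b no value exists under the 5 CPM filter. Depth limits Cox8b and Cox7a1, whose smallest counts were 27 and 276.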
